A study of Homo sapiens with 3 samples.

Results

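The genes of programmed cell death BCL2L11, BBC3, PMAIP1, MCL1, BCL2L1, BAX, BAK1, TNFSF10, TNFRSF10A and TNFRSF10B were followed in HaCaT cells. HaCaT is an immortalised human keratinocyte line. They were taken by symbol as genes of this pathway, and all 10 of 10 were found among the 58735 genes of the count table. All 10 were among the 14619 genes with at least 1 CPM (counts scaled to the library total) in at least 1 library. The S1650b culture was exposed to that particulate sample at 50 µg/mL, carbon black (CB) was given at 25 µg/mL to another culture, and the control had neither, each for 24 h in medium free of serum. The cells are labelled WT in all 3 groups. Each group holds 1 library, so there is no replicate check and no test between conditions, and no P value is given.

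The libraries hold 20417744 (S1650b), 20946139 (CB) and 20658247 (control) gene counts. Levels are CPM scaled by the trimmed mean of M-values (TMM), or FPKM (per gene length and library size) where genes are compared with each other. A fold is the ratio of scaled CPM with an exact 95% conditional binomial interval, which covers counting error only and not variation between cultures. The labels name no molecular identifiers that would tell PCR copies from separate molecules, and the intervals take every read as separate. The size rule used for a call, higher or lower, asks for 1.5-fold or more together with an interval that excludes 1. Keratinocyte markers had a summed level of 6089.7 CPM in S1650b, 11518 CPM in CB and 12996 CPM in the control, and all 8 of them were counted in every library. That sum is carried by the abundant basal keratins KRT5 and KRT14, which were 3.15-fold and 2.91-fold lower in S1650b than in the control. Of the 8 markers, 1 other was called higher in S1650b, 5 had intervals above 1 and 3 below, and the median log2 fold was 0.35. In bulk RNA, fewer cells of a kind and less RNA per cell cannot be told apart.

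Cells commit to apoptosis along converging routes. In the mitochondrial route, BH3-only proteins bind and neutralise pro-survival members of the BCL2 family, which frees the effectors BAX and BAK1 to open the outer mitochondrial membrane. In the receptor route, the ligand TRAIL engages death receptors that recruit FADD and caspase 8. The protein BID links both routes. In epidermis, apoptosis removes keratinocytes with heavy DNA damage, such as after ultraviolet light, and TRAIL is known as a target of interferon signalling and of FOXO factors. RNA levels say nothing of protein stability or splicing, which matter for MCL1, a protein of short life, and for BCL2L1 and BCL2L11, whose isoforms are not separated in counts per gene.

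RefSeq promoter windows were at hand for 7 of the 10 genes. Their start is the RefSeq start and not the end of the gene span given below, which is from GENCODE. The BCL2L11 window lies inside its gene span, and the other windows printed here run into theirs. The 250 bases before the start are shown for 4 genes, which are a choice. TNFSF10 had the largest fold among the 10. BCL2L11 and PMAIP1 lay on opposite sides of the control in the 2 particle libraries, as did BAX and MCL1, which are not shown. BBC3 was below the control in both, as were TNFSF10 and BCL2L1, of which BCL2L1 is not shown. These sides are as measured, before the length and GC trends described below were removed. The bases are written 5′ to 3′ on the strand of the gene, build GRCh38.p14, with matches to any of 6 motifs in capitals.
TNFSF10 (chr3:172523431-172523680, minus strand): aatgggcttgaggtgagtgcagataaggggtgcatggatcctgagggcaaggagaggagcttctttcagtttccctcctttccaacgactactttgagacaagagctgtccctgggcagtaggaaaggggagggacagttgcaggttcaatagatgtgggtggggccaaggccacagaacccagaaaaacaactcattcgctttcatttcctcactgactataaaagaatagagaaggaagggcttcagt
BCL2L11 (chr2:111120664-111120913, plus strand): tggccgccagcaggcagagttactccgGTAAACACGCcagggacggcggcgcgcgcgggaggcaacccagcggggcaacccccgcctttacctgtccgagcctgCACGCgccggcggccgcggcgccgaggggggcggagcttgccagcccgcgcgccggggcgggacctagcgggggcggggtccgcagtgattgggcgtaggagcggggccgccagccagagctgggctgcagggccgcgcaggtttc
PMAIP1 (chr18:59899746-59899995, plus strand): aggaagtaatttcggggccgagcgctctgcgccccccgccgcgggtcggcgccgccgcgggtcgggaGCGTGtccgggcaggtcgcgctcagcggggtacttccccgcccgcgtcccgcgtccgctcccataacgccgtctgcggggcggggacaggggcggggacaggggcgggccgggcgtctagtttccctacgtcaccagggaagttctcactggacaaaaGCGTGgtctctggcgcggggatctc
BBC3 (chr19:47232668-47232917, minus strand): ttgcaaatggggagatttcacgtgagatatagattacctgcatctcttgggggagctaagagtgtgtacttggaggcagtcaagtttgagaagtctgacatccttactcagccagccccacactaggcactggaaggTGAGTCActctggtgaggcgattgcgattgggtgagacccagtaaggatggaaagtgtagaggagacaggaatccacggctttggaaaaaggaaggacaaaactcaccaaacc

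Both strands were searched for each motif, and the share of all 35116 RefSeq windows of the same length that hold it is given beside it. The BCL2L11 window holds the FOXO motif GTAAACA, whose first base lies 223 bases before the start and which 2.98% of windows hold. It also holds the core of the AHR motif, GCGTG, at 2 places on the other strand, one of which overlaps the FOXO match, and the PMAIP1 window holds GCGTG at 2 places. That core is common, with 32.2% of windows. The BBC3 window holds the AP-1 motif TGANTCA 113 bases before the start (6.57% of windows). The antioxidant response motif TGACNNNGC (10.9%), the amino acid response motif TGATGNAA (3.14%) and the GAS motif TTCNNNGAA (6.57%) had no match in these 4 windows, and the TNFSF10 window had no match to any of the 6. Among windows not shown, that of BAX holds the antioxidant response motif 89 bases before the start, and a BCL2L1 window holds GCGTG. A match is a run of letters and was not tested for binding.

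The 10 genes spanned a wide range of levels per length. MCL1, a pro-survival protein, was the highest in all 3 libraries, with 121 FPKM in S1650b, 112 in CB and 117 in the control. In the S1650b library the order of FPKM below MCL1 was BCL2L1 (34.2), BAX (25.5), TNFSF10 (22.3), BAK1 (18.5), PMAIP1 (12.8), TNFRSF10B (12.2), BCL2L11 (6.31), TNFRSF10A (5.32) and BBC3 (3.04), of which PMAIP1 and TNFRSF10B overlapped in their counting intervals. In the CB library it was BAX (51.0), BCL2L1 (38.4), PMAIP1 (35.7), BAK1 (32.9), TNFRSF10B (14.5), TNFRSF10A (9.75), TNFSF10 (6.19), BCL2L11 (3.88) and BBC3 (3.82). There the intervals of BCL2L1 and PMAIP1, of PMAIP1 and BAK1, and of BCL2L11 and BBC3 overlapped. In the control it was BCL2L1 (44.4), BAX (39.3), TNFSF10 (34.4), BAK1 (29.6), PMAIP1 (24.5), TNFRSF10B (10.7), TNFRSF10A (5.87), BBC3 (5.22) and BCL2L11 (5.00), where the intervals of TNFRSF10A and BBC3 and of BBC3 and BCL2L11 overlapped. TNFSF10 was the fourth of the 10 in S1650b and in the control and the eighth in CB. Per length, BAX stood above BCL2L1 in CB and below it in S1650b and in the control.

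**Figure D1:**
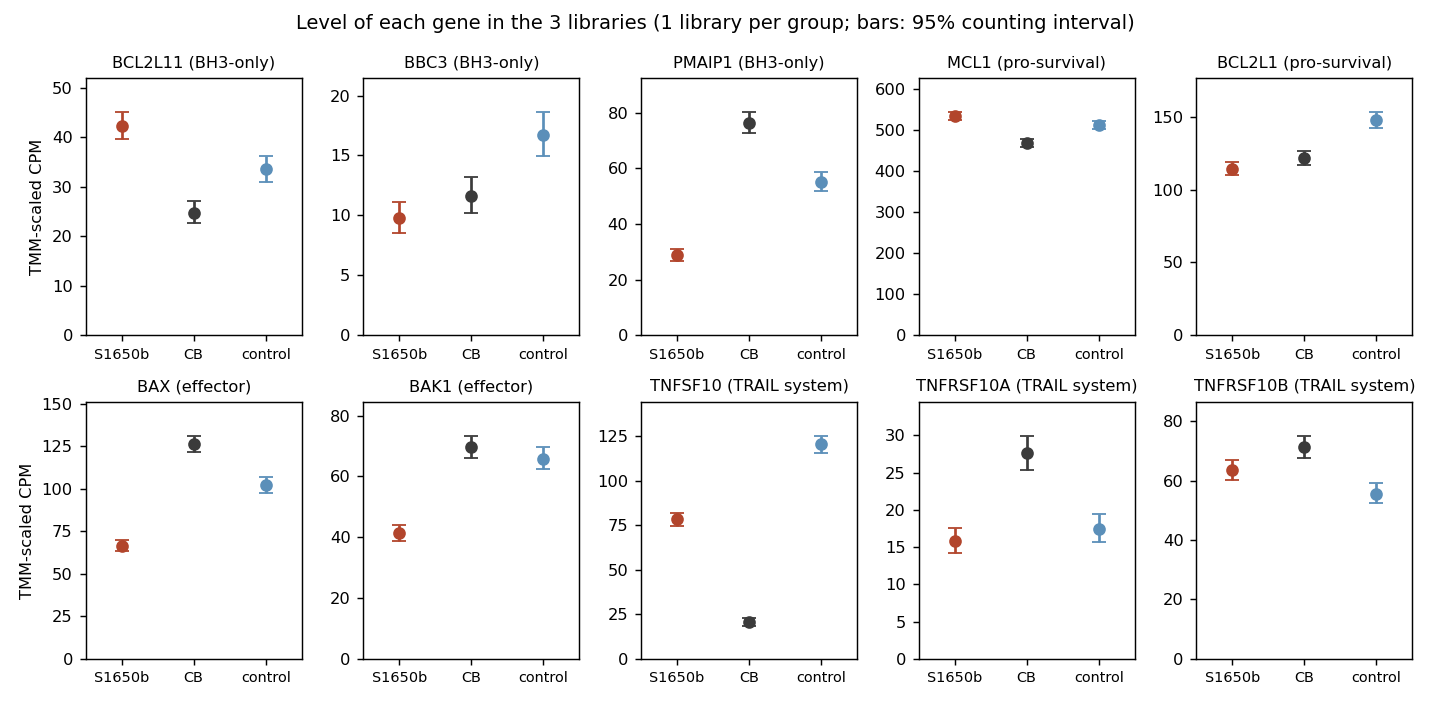
Level of each of the 10 genes as TMM-scaled CPM (vertical axis, from 0, with its own scale per panel) in the S1650b, CB and control libraries, 1 library per group. Points are the measured level and bars its exact 95% counting interval. TNFSF10 has 78.2 CPM in S1650b, 20.6 in CB and 120.3 in the control.

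BH3-only genes did not move as one group. BCL2L11 (ENSG00000153094, chromosome 2, 111119378 to 111168447, GRCh38) encodes BIM, which binds all pro-survival members of the family. It had 42.4 CPM in S1650b, 24.8 CPM in CB and 33.5 CPM in the control. The S1650b library was above and the CB library below the control, with intervals that exclude 1 on both sides, but with length and GC trends removed the S1650b interval holds 1 (0.940 to 1.149). The fold was 1.26 (1.14 to 1.40) for S1650b against control, and the CB level was 1.35-fold lower than the control (1.20 to 1.52), so neither was called. S1650b against CB, at unequal doses, was 1.71-fold higher (1.53 to 1.91), a call that ended with the length and GC trends described below removed (1.48). Exons of the antisense gene MIR4435-2HG overlap 10.9% of the BCL2L11 exons, and that gene had 584 counts in S1650b, 682 in CB and 608 in the control. The sources used here do not say whether reads were counted by strand.

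PMAIP1 (ENSG00000141682, chromosome 18, 59899948 to 59904306) encodes NOXA, which binds MCL1 and speeds its breakdown. Its level was 28.8 CPM in S1650b, 76.4 CPM in CB and 55.2 CPM in the control, the reverse of the BCL2L11 order. S1650b was 1.92-fold lower than the control (1.74 to 2.12) and 2.65-fold lower than CB (2.42 to 2.91). CB against control had a fold of 1.38 (1.28 to 1.496), under the size set for a call. BBC3 (ENSG00000105327, chromosome 19, 47220822 to 47232766) encodes PUMA, which binds all pro-survival members. It had 9.76 CPM in S1650b, 11.6 CPM in CB and 16.7 CPM in the control, on 218, 234 and 329 counts. Both particle libraries lay below the control, S1650b 1.71-fold (1.44 to 2.04) and CB 1.44-fold (1.21 to 1.71). The S1650b fold of BBC3 passed the size rule and the CB fold did not. The S1650b call ended with scaling by total counts (1.49-fold lower), with the length trend removed (1.49) and with both trends removed (1.21). The S1650b and CB levels of BBC3 could not be told apart by counting error (fold 0.838, 0.694 to 1.01).

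The pro-survival genes differed little. MCL1 (ENSG00000143384, chromosome 1, 150574551 to 150579738) had 535 CPM in S1650b, 469 CPM in CB and 513 CPM in the control. On 9423 to 11955 counts a library, its intervals exclude 1, but the folds were small: 1.04 for S1650b against control (1.02 to 1.07) which became 0.948 with length and GC trends removed, and 0.913 for CB against control (0.888 to 0.939). BCL2L1 (ENSG00000171552, chromosome 20, 31664452 to 31723989), which encodes BCL-XL, had 114 CPM in S1650b, 122 CPM in CB and 148 CPM in the control. Both particle libraries were below the control, with folds of 0.772 (0.732 to 0.815) in S1650b and 0.822 (0.779 to 0.868) in CB, and neither passed the size rule. With length and GC trends removed the S1650b fold of BCL2L1 was 1.07 (1.01 to 1.13), above the control. Exons of the antisense gene ABALON overlap 43.0% of the BCL2L1 exons, but ABALON itself had 40 counts in S1650b, 51 in CB and 29 in the control.

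The effector genes were lower in S1650b than in CB and in the control. BAX (ENSG00000087088, chromosome 19, 48954815 to 48961798), which permeabilises mitochondria, had 66.7 CPM in S1650b, 126 CPM in CB and 102 CPM in the control. BAK1 (ENSG00000030110, chromosome 6, 33572547 to 33580293), its partner in opening mitochondria, had 41.3 CPM in S1650b, 69.7 CPM in CB and 65.9 CPM in the control. S1650b was below the control 1.53-fold for BAX (1.43 to 1.64) and 1.60-fold for BAK1 (1.47 to 1.74). With the library-wide trends with length and GC removed, these folds were 0.962 for BAX and 0.930 for BAK1, and neither call was kept. In CB the BAX fold was 1.24 (1.16 to 1.31) and the BAK1 fold 1.06 (0.980 to 1.14), and neither was called. S1650b against CB was 1.90-fold lower for BAX (1.78 to 2.02) and 1.69-fold lower for BAK1 (1.55 to 1.84), again with both calls lost when the trends were removed (1.33-fold and 1.17-fold).

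TNFSF10 (ENSG00000121858, chromosome 3, 172505508 to 172523507), which encodes TRAIL, varied most of the 10. It had 1747 counts in S1650b, 414 in CB and 2366 in the control. That is 78.2 CPM in S1650b, 20.6 CPM in CB and 120.3 CPM in the control. CB was 5.84-fold lower than the control (fold 0.171, 0.154 to 0.190), and ranked 77 from the lowest fold among the 14619 genes. S1650b was 1.54-fold lower than the control (1.45 to 1.64), and 3.80-fold higher than CB (3.41 to 4.24). Under the alternatives run, the CB level of TNFSF10 was between 5.48-fold and 6.09-fold lower. Its S1650b fold lost the call with scaling by total counts (1.34-fold lower), by upper quartile (1.47), with the filter of 5 CPM (1.49) and with the length trend removed (1.37). Exons of no other gene overlap it.

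The 6 fibroblast markers summed to 12.9 CPM in S1650b, 30.2 CPM in CB and 93.2 CPM in the control, where DCN (54.2 CPM) and COL3A1 (32.4 CPM) made up most of it. Of the 3 fibroblast markers that reached 1 CPM, 2 were lower in S1650b and 2 in CB. COL1A2 and PDGFRB were at 0 in the control. The 5 endothelial markers summed to 44.0, 27.7 and 54.8 CPM in S1650b, CB and control, nearly all from CDH5, which was 2.06-fold lower in CB than in the control, and KDR was at 0 in all 3. Melanocyte markers summed to 9.49, 8.21 and 9.76 CPM and immune markers to 1.16, 1.34 and 2.08 CPM in the same order, with TYR, DCT and CD68 at 0 in all 3. The part of these markers in the TNFSF10 result was not tested.

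The death receptors for TRAIL did not follow their ligand in CB. TNFRSF10A (ENSG00000104689, chromosome 8, 23190452 to 23225126), which encodes DR4, had 15.8 CPM in S1650b, 27.6 CPM in CB and 17.4 CPM in the control. CB stood apart from S1650b and the control, 1.58-fold above the control (1.38 to 1.81), and S1650b was 1.74-fold lower than CB (1.52 to 1.99; 1.36-fold with length and GC trends removed). The S1650b fold against control was 0.909 (0.781 to 1.06), and its interval holds 1, so no difference could be seen from this many reads. Its antisense neighbour TNFRSF10A-AS1 had 38 counts in S1650b, 48 in CB and 36 in the control, and exons on the other strand overlap 16.6% of TNFRSF10A. TNFRSF10B (ENSG00000120889, chromosome 8, 23020133 to 23069179), which encodes DR5 and responds to the stress factor CHOP, had 63.7 CPM in S1650b, 71.4 CPM in CB and 55.7 CPM in the control. Both particle libraries were above the control, by 1.14 (1.06 to 1.24) in S1650b and 1.28 (1.18 to 1.39) in CB, short of the size rule. The decoy receptors TNFRSF10C and TNFRSF10D had 0 to 2 counts a library, and the soluble decoy TNFRSF11B 3 to 8 counts, so none of them reached 1 CPM.

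**Figure D2:**
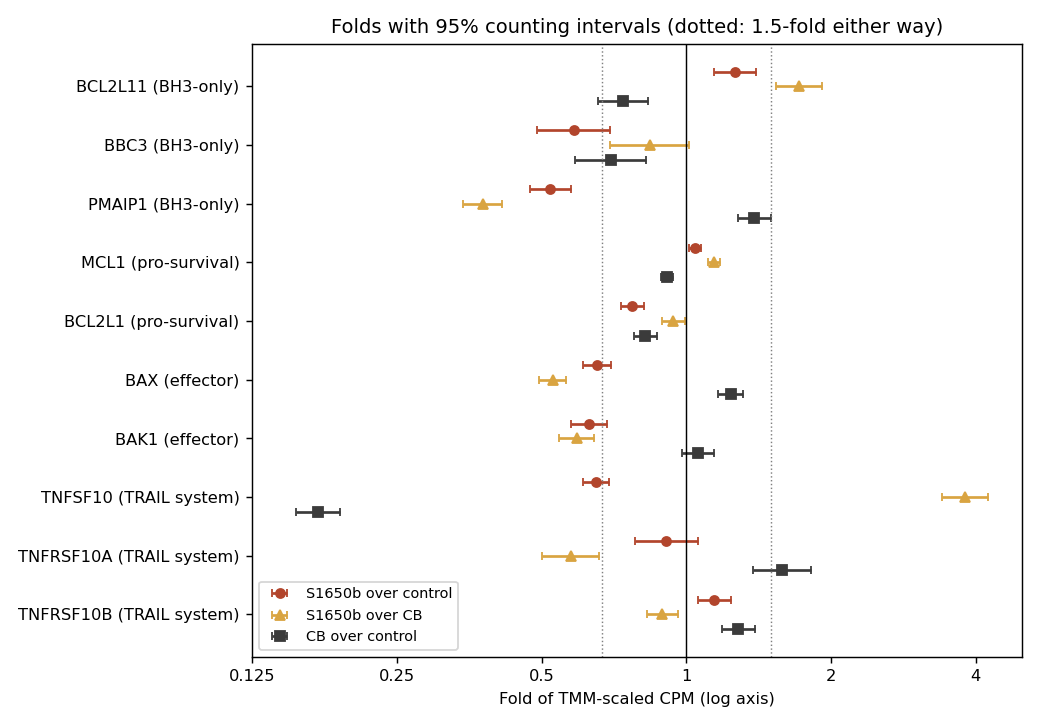
Folds of the 10 genes (horizontal log axis, ratio of TMM-scaled CPM) for S1650b over control (circles), S1650b over CB (triangles) and CB over control (squares), with exact 95% counting intervals and dotted lines at 1.5-fold either way. TNFSF10 spans the widest range, and BCL2L11, PMAIP1, MCL1 and BAX have S1650b and CB intervals against the control on opposite sides of 1.

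Counted over the list, S1650b against control had 0 of the 10 higher and 5 lower, where 21.9% of all genes were higher and 19.6% lower (41.4% either way). CB against control had 1 of the 10 higher (TNFRSF10A) and 1 lower (TNFSF10), where 4.71% of all genes were higher and 10.7% lower (15.4% either way). S1650b against CB had 2 higher (BCL2L11 and TNFSF10) and 4 lower (PMAIP1, BAX, BAK1 and TNFRSF10A), where 26.1% of all genes were higher and 20.7% lower (46.8% either way). The share called either way among the 10 lay near that of all genes in each comparison, and in S1650b against control all 5 calls were in the lower direction. Under the stricter fold of 2, S1650b against control had 0 of the 10 called, where 11.9% of all genes were higher and 7.97% lower (19.9% either way). CB against control then had 1 lower (TNFSF10), where 1.68% of all genes were higher and 5.6% lower (7.28% either way). S1650b against CB had 1 higher (TNFSF10) and 1 lower (PMAIP1), where 15.9% of all genes were higher and 9.52% lower (25.4% either way). The median log2 fold of the 10 was −0.50 for S1650b against control, and −0.05 for all genes. With the length trend removed the median of the 10 was −0.28, and with length and GC trends removed −0.07, close to that of all genes. For CB against control it was −0.03 (−0.06 to 0.05 under the alternatives), and −0.0048 for all genes. Both comparisons with the control share that library, so their folds are not independent.

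**Figure D3:**
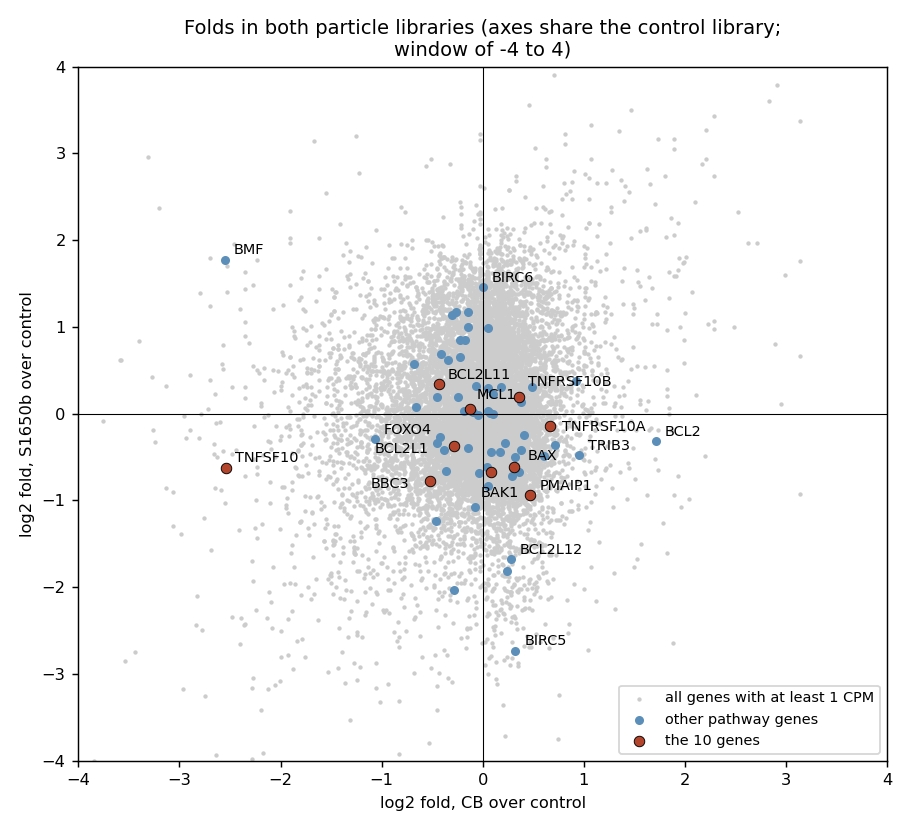
log2 folds of CB over control (horizontal axis) and S1650b over control (vertical axis), with 0.5 counts added, for the 10 genes (red), other listed genes of the pathway (blue) and all 14619 genes with at least 1 CPM (grey) that fall within the window. Both axes share the control library. TNFSF10 and BMF lie far to the left, below and above the horizontal line.

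Ratios of FPKM between 2 genes of the same library do not depend on scaling between libraries. They still carry the S1650b trends with gene length and GC described below, and were not computed with those trends removed. PMAIP1 to MCL1, the pair of an inhibitor and its main target, was 0.105 in S1650b (0.0970 to 0.114), 0.319 in CB (0.302 to 0.336) and 0.210 in the control (0.197 to 0.224). The 3 intervals do not overlap, with CB highest and S1650b lowest. BAX to BCL2L1 was 0.747 in S1650b (0.700 to 0.796), 1.33 in CB (1.26 to 1.41) and 0.884 in the control (0.835 to 0.937), again in that order. BCL2L11 to PMAIP1, the balance of both BH3-only genes, ran the other way, at 0.494 in S1650b, 0.109 in CB and 0.204 in the control. The ligand to receptor ratio of TNFSF10 to TNFRSF10B was 1.82 in S1650b, 0.428 in CB and 3.21 in the control. TRAIL RNA exceeded that of DR5 per length in S1650b and in the control, and lay below it in CB.

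The S1650b library differed from the control along gene length and GC content. BAX, BAK1 and PMAIP1 fall in the second shortest of 8 length classes, whose median log2 fold was −0.30 for S1650b against control. BAX and BAK1 are in a GC class with a median of −0.38, BBC3 in the class of highest GC with −0.43, and TNFSF10 in a class of low GC with 0.41. For CB against control these class medians were −0.03, −0.04, −0.09 and 0.05. With both trends removed, PMAIP1 was still 1.95-fold lower in S1650b and TNFSF10 1.74-fold lower, and BBC3 (0.824) was no longer called. BCL2L11 then had a fold of 1.04, MCL1 of 0.948 and BCL2L1 of 1.07, and for MCL1 and BCL2L1 that is the other side of the control. TNFRSF10A was then above the control, at 1.16 (1.04 with scaling by total counts), and TNFRSF10B stayed above it, at 1.22. No CB call among the 10 ended with the trends removed.

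**Figure D4:**
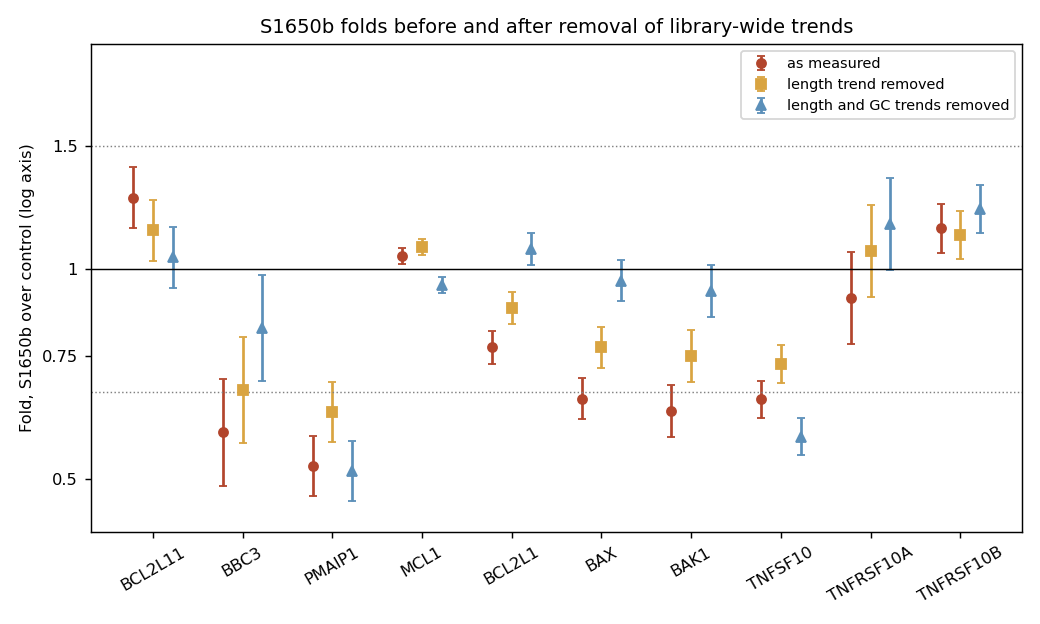
Folds of S1650b over control for the 10 genes (vertical log axis) as measured (circles), with the length trend removed (squares) and with length and GC trends removed (triangles). Bars are exact 95% counting intervals shifted with the fold and dotted lines mark 1.5-fold either way. PMAIP1 stays below the lower dotted line at each step, while BAX and BAK1 move to near 1.

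Of 68 other genes of the pathway, 56 reached 1 CPM. In S1650b against control 12 were higher and 12 lower (median log2 fold −0.01), and in CB against control 5 were higher and 4 lower (median −0.02). In all genes, 21.9% were higher and 19.6% lower in S1650b, and 4.71% higher and 10.7% lower in CB. With both trends removed, 6 of the 12 and 7 of the 12 were still called in S1650b, and 1 other gene was then called higher and 4 others lower, which makes 7 higher and 11 lower. TNFRSF12A was among those gained (1.94-fold higher), and so was CYCS (1.72-fold lower). In CB 4 of the 5 and 4 of the 4 were kept and none was gained.

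Among other BH3-only genes, BMF, which senses loss of attachment, had 29.4 CPM in S1650b, 1.44 CPM in CB and 8.59 CPM in the control. It was 3.42-fold higher in S1650b (2.89 to 4.08) and 5.95-fold lower in CB (29 counts against 169), so the particle libraries stood on opposite sides of the control. With both trends removed the S1650b fold was 4.03. BID, BAD and BIK were lower in S1650b, BID 1.78-fold and BAD 2.37-fold, while HRK had a fold of 1.14 (0.926 to 1.41). With both trends removed the BIK call ended (0.883), while BID (1.59-fold lower) and BAD (1.60-fold lower) were still called. Exons of GPR137 overlap 23.7% of BAD. In the wider family BCL2L12 was 3.20-fold lower in S1650b (exons of IRF3 overlap 33.1% of it), and BOK had a fold of 0.737. With both trends removed BCL2L12 was 2.16-fold lower and the BOK fold was 1.06. Among other pro-survival genes BCL2L2 had folds of 1.02 in S1650b (1.30 with both trends removed) and 1.03 in CB. BCL2 had 10 counts in S1650b, 38 in CB and 11 in the control, and passed the filter on low counts only through the CB library (fold 3.38, 1.69 to 7.33). BCL2A1 and BCL2L10 had at most 4 counts.

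In the receptor complex, S1650b had CFLAR, the inhibitor of caspase 8, at 1.58-fold and the kinase RIPK1 at 1.53-fold above the control, and the adaptor FADD 1.59-fold below it. The CFLAR and FADD calls ended with both trends removed (0.907 and 0.939), and exons of another gene overlap 54.9% of FADD. CASP8 had folds of 1.14 in S1650b and 0.842 in CB. With both trends removed these were 0.809 (0.737 to 0.888) and 0.818 (0.738 to 0.907), both below the control. Of the 6 genes of this list 0 were called in CB, where 15.4% of all genes were. Of other death ligands and receptors, TNFRSF12A, the receptor for TWEAK, was 1.90-fold higher in CB (1.83 to 1.97) and TNFRSF1A 1.58-fold lower in S1650b, a call that ended with both trends removed (0.821). FASLG was at 0 in all 3 libraries, and FAS had 195 counts in S1650b, 199 in CB and 139 in the control.

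Downstream of mitochondria, CYCS, the cytochrome c that starts the apoptosome, had 225 CPM in S1650b, 477 CPM in CB and 314 CPM in the control. It was 1.52-fold higher in CB (1.47 to 1.57), a call that ended with both trends removed (1.45). CASP9, the caspase it activates, was 1.58-fold lower in CB, on 93 counts against 144. APAF1, the apoptosome scaffold, was 1.61-fold higher in S1650b, and HTRA2 and ENDOG, which are released from mitochondria, 1.60-fold and 1.53-fold lower, but with both trends removed these 3 folds were 1.01, 0.888 and 0.945. Exons of other genes overlap 36.9% of HTRA2 and 39.2% of ENDOG.

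The IAP family of caspase inhibitors went both ways in S1650b. BIRC5, survivin, which also serves in mitosis, had 25.6 CPM in S1650b, 213 CPM in CB and 170 CPM in the control, and was 6.64-fold lower in S1650b (5.54-fold with both trends removed). BIRC6 was 2.75-fold, BIRC2 2.21-fold and XIAP, which blocks caspases directly, 1.80-fold higher. With both trends removed BIRC2 was still called (1.62) while BIRC6 (1.41) and XIAP (1.03) were not. In CB, BIRC3 was 1.61-fold lower and no IAP gene was higher.

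**Figure D5:**
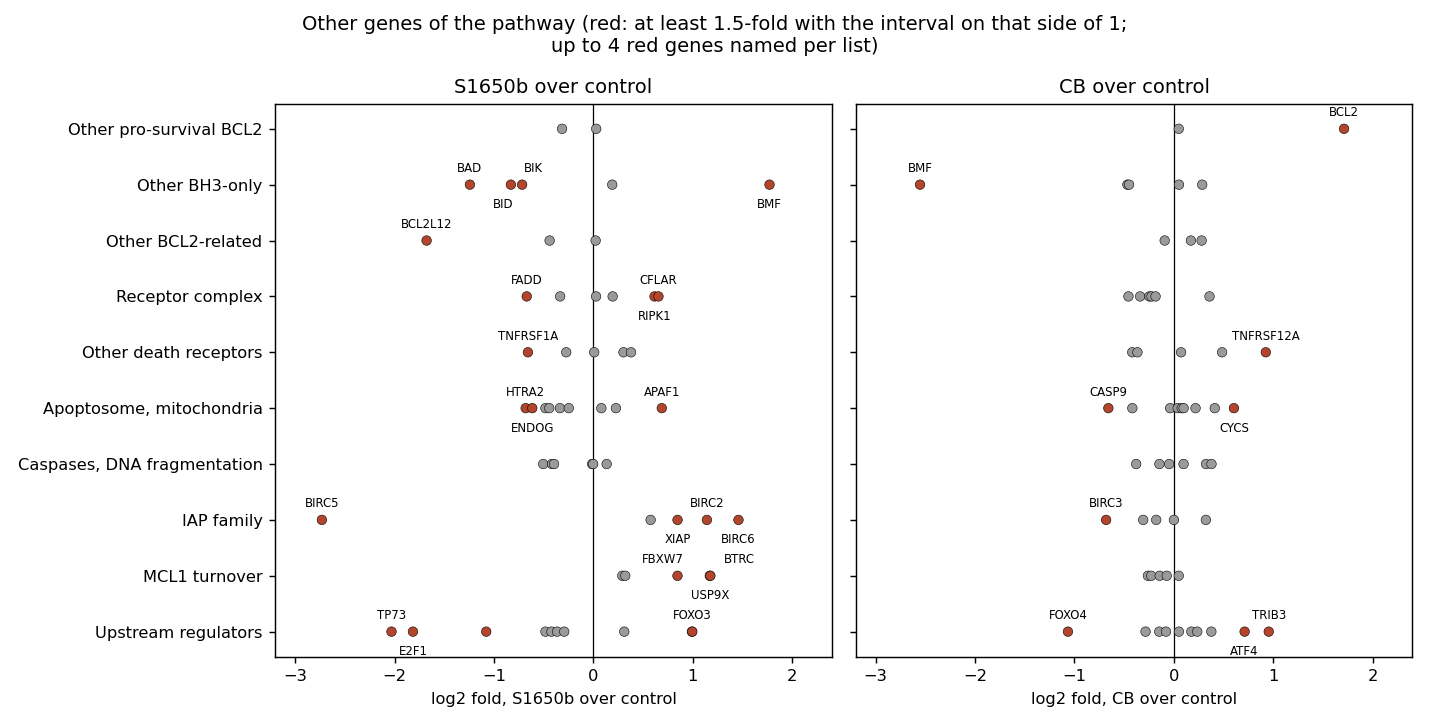
log2 folds of the other pathway genes with at least 1 CPM, by list, for S1650b over control (left) and CB over control (right). Each point is 1 gene, red where it is at least 1.5-fold with the interval on that side of 1, with up to 4 red genes named per list. BMF is on the right in S1650b and on the left in CB, and BIRC5 has the lowest log2 fold in S1650b.

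Genes whose folds against the control lay nearest to a member were sought among 11324 genes with at least 5 CPM in any library, as the distance in the plane of both log2 folds over the 3 libraries. Nearest to TNFSF10 were ENSG00000124593 (distance 0.19), MUC16, a mucin (0.23), and GBP2, an interferon-inducible GTPase (0.26). MUC16 had 196 counts in S1650b, 43 in CB and 231 in the control, and GBP2 had 237, 65 and 384. Nearest to BCL2L11 were LMO7, MR1 and ROBO1, with distances of 0.01, 0.02 and 0.03, in a crowded part of the plane.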

How the data were processed

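RNA from 3 HaCaT cultures was sequenced, 1 library per group. Trizol extraction and a NEBNext Ultra RNA kit were used, per the labels' protocols. The deposited table holds whole-number counts per Ensembl gene. A second deposited table holds FPKM by the authors, and its values are the counts over gene length and 1 constant for each library. CASAVA 1.7 and the mouse builds mm8 and mm9 stand in the submitters' processing notes; these builds conflict with the human identifiers. Aligner, counting tool and strand setting were not given in the sources used here. GENCODE 29 (GRCh38) holds all 58735 identifiers, and from it positions, exon overlap, length and GC were taken, and 58207 symbols came from a gene name table. Promoter windows are from RefSeq (GRCh38.p14).

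TMM factors (edgeR 4.0.16, R 4.3.3) were 1.09 (S1650b), 0.960 (CB) and 0.952 (control). Genes with at least 1 scaled CPM in at least 1 library were kept. Intervals are Clopper-Pearson at 95%. A minimum of 5 CPM applied to the search for nearest genes. The code was checked on simulated counts. Scripts ran under Python 3.11.15 (matplotlib 3.10.9 for plots, statsmodels 0.14.6 for lowess, scipy 1.17.1 for intervals, pandas 2.3.3, numpy 2.4.6).

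The 10 genes, the other pathway lists, the markers and the size rules were chosen with earlier results of these data known, and the motifs after the promoter windows had been seen. All 10 genes are named. From each other list at most 4 genes per comparison that passed the size rule may be named, ranked by the interval end nearest to 1. Genes named below the size rule (HRK, BOK, BCL2L2, CASP8 and FAS, and those at or near 0) lie outside it: they were picked once their values had been seen, as were the pairs of genes set in ratio. Alternatives were scaling by total counts, DESeq2 1.42.0 median of ratios or upper quartile, the deposited FPKM with 0.1 added, no filter or 5 CPM, a fold of 2, no mitochondrial genes, and removal of trends with length or with length and GC (lowess, span 30%).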

Additional observations from a re-analysis of the deposited data

Results flagged for a closer look

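In 4 of the 10 genes the intervals of S1650b and of CB against the control lay on opposite sides of 1. The difference between the particles was not tested, since each has 1 library and the doses were unequal. S1650b over CB, the fold was 1.71 for BCL2L11 and 1.14 for MCL1, which were above the control in S1650b and below it in CB. It was 0.377 for PMAIP1 and 0.528 for BAX, which were below the control in S1650b and above it in CB. Of all 14619 genes, 7.22% showed the first pattern and 13.4% the second, so such pairs were common in these libraries. With length and GC trends removed, PMAIP1 alone of the 4 kept this pattern. BCL2L1, outside the 4, then showed it, at 1.07 (1.01 to 1.13) in S1650b and 0.828 (0.784 to 0.874) in CB. The S1650b intervals against the control then held 1 for BCL2L11 (0.940 to 1.149) and BAX (0.899 to 1.03), and the S1650b fold of MCL1 was 0.948, on the same side as in CB.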

How the results depend on the processing

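No paired analysis was possible because each group holds 1 library. In CB against control the 2 calls were kept under all alternatives but the stricter fold of 2, which left 1 (TNFSF10). In S1650b against control the 5 calls depended on the setting: 4 were left with DESeq2 median of ratios (BAX lost), 1 with total counts (PMAIP1), 3 with upper quartile scaling and 3 with the filter of 5 CPM (BBC3, PMAIP1 and BAK1 each time), 0 with a fold of 2, 1 with the length trend removed (PMAIP1), and 2 with length and GC trends removed (PMAIP1 and TNFSF10). Scaling by total counts shifts all log2 folds of S1650b against control by 0.20. In S1650b against CB the 6 calls came to 2 with a fold of 2 and 2 with both trends removed (PMAIP1 and TNFSF10 each time), to 5 with total counts (BAK1 lost) and to 4 with the length trend removed (BAK1 and TNFRSF10A lost). No called fold changed direction. Of 90 single folds per comparison under the alternatives that can move a fold, 87 (CB against control), 63 (S1650b against control) and 61 (S1650b against CB) stayed within the counting interval. The cause of the lost calls was not tested. Depth limits BBC3 and TNFRSF10A most, at 218 to 554 counts, and the decoy receptors altogether.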

Other observations

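Levels of regulators upstream of these genes differed between the particle libraries. With 1 library per group and unequal doses, particle, dose and culture cannot be told apart. The folds in this paragraph are against the control. ATF4, the factor of the integrated stress response, had 312 CPM in S1650b, 657 CPM in CB and 401 CPM in the control, and was 1.64-fold higher in CB (1.59 to 1.68). Its target TRIB3 was 1.94-fold higher in CB. FOXO4, a FOXO factor, had 43.2 CPM in S1650b, 25.3 CPM in CB and 52.9 CPM in the control, and was 2.09-fold lower in CB. FOXO3 was 1.99-fold higher in S1650b (1.69 with length and GC trends removed) and had a fold of 0.903 in CB. TP73, a transcription factor that can drive apoptosis, was 4.10-fold lower in S1650b, and E2F1, a driver of S phase, 3.52-fold lower. With length and GC trends removed TP73 was 3.70-fold and E2F1 2.39-fold lower.

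Of 5 genes that set how long MCL1 protein lasts, BTRC, part of a ubiquitin ligase, was 2.26-fold higher in S1650b, USP9X, which removes ubiquitin from MCL1, 2.25-fold and FBXW7, part of another ligase, 1.80-fold, and 0 were lower, where 21.9% of all genes were higher and 19.6% lower. With both trends removed BTRC was still called (1.79), while USP9X (1.149) and FBXW7 (1.04) were not. In CB, 0 of the 5 were called, where 15.4% of all genes were, and a difference between the particles was not tested.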
